A study of Rattus norvegicus with 13 samples.

Results

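The genes described here carry the names of subunits and assembly factors of respiratory complex I, and were measured in the rat heart. The subunit genes are all names made of Nduf, a letter a, b, c, s or v and a number, together with Ndufab1, which gives 38 genes. One of these, Ndufa4, was named as a complex I subunit but is now assigned to complex IV. It is counted among the 38 by its name and kept apart where genes are given by role. The assembly factor genes are all names made of Ndufaf and a number, which gives 8 genes. These 46 genes were found among the 38600 names of the tables of 6 and 8 months. The table of 2 months holds 25600 names, of which 42 belong here: Ndufa10, Ndufb1, Ndufb9 and Ndufaf8 are not among them, and Ndufb2, with 0 counts in all 4 libraries, was left out there. At 2 months 34 subunits and 7 factors were thus described.

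The data are 13 bulk libraries of total RNA from rat hearts. The sonogenetic hearts, ST for short, carried MscL-G22S, a variant of a bacterial channel that opens under membrane tension, with the fluorescent protein mCherry, after transduction with AAV2/9-cTnT-MscL-G22S-mCherry. The cardiac troponin T (cTnT) promoter drives the transgene in heart muscle cells. There were 2 ST and 2 WT hearts at 2 months, 3 ST and 3 WT hearts at 6 months, and 3 ST hearts at 8 months, for which no WT hearts were analysed here. WT hearts had no treatment by their labels, so that virus, channel and fluorescent protein cannot be told apart in any comparison. The labels do not give the strain, whether ultrasound was applied, or from when the months are counted. The transgene had 0 counts in every WT library and 94 to 1667 counts in the ST libraries. Relative to the library total, ST replicates 1 and 2 of 2 months had 11.24 and 11.03 CPM of it. Replicates 1 to 3 had 196.7, 90.39 and 209.2 CPM at 6 months and 160.13, 115.7 and 179.97 CPM at 8 months. Whether the tables counted the transgene alike was not tested, and nor was the part of its level in the complex I results. A count of 0 allows up to 0.459 CPM in a WT library, by counting error alone.

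Complex I is the entry point of the respiratory chain in the inner mitochondrial membrane: it takes electrons from NADH, hands them through a flavin and a row of iron-sulfur clusters to ubiquinone, and pumps protons. It has a matrix arm, which holds the redox groups, and a membrane arm, whose core is encoded by mitochondrial DNA and whose outer part is built mainly of Ndufb subunits. Accessory subunits wrap this core, and assembly factors help to build modules of the complex without staying in it. Heart muscle is rich in mitochondria and relies on this chain for most of its ATP.

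Libraries held 6539312 to 11296869 counts at 2 months, 6715215 to 8485537 at 6 months and 4696160 to 5573022 at 8 months. The complex I genes had 32 (Ndufaf2) to 12202 counts (Ndufs1) per library at 2 months and 76 (Ndufaf6) to 10338 (Ndufs1) later, and all of them passed the filter on low counts. Levels are in CPM, the counts of a gene relative to the library total, scaled within the table of 2 months and jointly for the later tables, and they are not divided by transcript length, so that levels of different genes are not compared. The tables of 2 months and later list different names, and levels of 2 months are not set against later levels. Each table holds its own time point, so that time and table cannot be told apart where ST hearts of 8 months are compared with hearts of 6 months. In bulk RNA, fewer cells of a type and less RNA per cell cannot be told apart either. Of 13 cardiomyocyte markers, with Tnnt2 and Myl2 among them, 12 were listed at 2 months, where Pln was not, and 13 later, and their summed level was 125800 CPM or more in every library.

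Certain libraries stood apart in these genes. WT replicate 1 of 6 months was the lowest of its group in 43 of 46 complex I genes, and ST replicate 1 of 2 months was the lower of its pair in 33 of 41. ST replicate 2 of 6 months was the lowest in 31 of 46, and also had the lowest transgene level of its group (90.39 CPM).

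Nuclear genes of the respiratory chain are known targets of the factors NRF1, YY1, ERR and GABP, and letters of their motifs were looked for in the promoters, taken from RefSeq (rat assembly GRCr8) as the 250 bases before and 50 bases after each gene's start. A promoter was found for 42 of the 46 genes, with Ndufa8, Ndufb9 and Ndufaf6 among those without. The YY1 motif AAGATGGCG was present, on either strand, in 8 of these 42 promoters (19%), against 1.73% of all 33469 rat promoters. The GABP motif ACCGGAAG was present in 5 (11.9%, against 2.49%), the NRF1 core GCATGCGC in 4 (9.52%, against 2.47%), the ERR site AAGGTCA in 4 (9.52%, against 4.61%) and the E-box CACGTG in 3 (7.14%, against 6.42%). NRF1 cores on both strands overlap where the letters GCGCATGCGC occur. The shares over all rat promoters count every promoter given, whether or not its gene was expressed in these hearts, and were not matched for base content. A match of letters is a description of the sequence and not evidence of binding.

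The 8 YY1 matches are shown because they share a place: each lies on the gene's own strand, and begins 2 to 26 bases after the gene's start, counted from 0 at the start itself. They are read 5′ to 3′ with the motif in capitals and 10 bases on each side.
Ndufs7: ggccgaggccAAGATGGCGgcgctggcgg
Ndufs4: tgcccacaggAAGATGGCGgcggtctcaa
Ndufs6: ggtcgtcggcAAGATGGCGgcggcgctga
Ndufa2: tttgctagcaAAGATGGCGgccgcaagcc
Ndufa6: cttccttagcAAGATGGCGgccgcggcca
Ndufa9: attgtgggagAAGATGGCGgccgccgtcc
Ndufb8: ggagaaggtgAAGATGGCGgcgtcccggg
Ndufaf8: ggcagggcccAAGATGGCGgcgcccacaa
These stretches lie at chr7:10110476-10110504 (minus strand) for Ndufs7, chr2:47794892-47794920 (minus) for Ndufs4, chr1:31797413-31797441 (plus) for Ndufs6, chr18:28631840-28631868 (minus) for Ndufa2, chr7:115750284-115750312 (minus) for Ndufa6, chr4:161374142-161374170 (minus) for Ndufa9, chr1:253362897-253362925 (minus) for Ndufb8 and chr10:105879900-105879928 (plus) for Ndufaf8. Of these 8 genes, 8 were higher in ST hearts of 8 months than in WT hearts of 6 months, where 93.5% of all complex I genes and 17.8% of all genes tested were. In ST hearts of 8 months, against ST hearts of 6 months, 7 were higher, where 73.9% of complex I genes and 19.1% of all genes were. Higher in ST than in WT hearts of 6 months were 2, Ndufa2 and Ndufa6, where 26.1% of complex I genes and 19.9% of all genes were. Of the 7 tested at 2 months 1, Ndufb8, was lower in ST than in WT hearts and 0 were higher. At 2 months 2.44% of complex I genes and 2.1% of all genes were lower, and 0 complex I genes and 2.7% of all genes higher. Whether these shares differ from those of the other complex I genes was not tested. The motif holds the letters ATG, and gc follows it in all 8 stretches. Whether these are starts of translation was not examined.

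3 whole promoters are shown as examples, with the motifs above in capitals. Ndufaf4, whose change between ST and WT hearts of 6 months had the smallest p of all 46 genes, holds overlapping NRF1 cores and an E-box (chr5:43401545-43401844, plus strand). Ndufa6, among the genes with the largest differences at 8 months, holds an NRF1 core and the YY1 motif (chr7:115750268-115750567, minus strand). Ndufs1, which passed the test in no comparison, holds none of the 5 motifs in this window (chr9:72073556-72073855, minus strand). Ndufb7 and Ndufc1 had the smallest p for ST hearts of 8 months against ST and WT hearts of 6 months, respectively. They hold none of the motifs either, and nor do Ndufa12 and Ndufc2, which rose at 6 months. Whether the motifs go with the changes was not tested.
Ndufaf4: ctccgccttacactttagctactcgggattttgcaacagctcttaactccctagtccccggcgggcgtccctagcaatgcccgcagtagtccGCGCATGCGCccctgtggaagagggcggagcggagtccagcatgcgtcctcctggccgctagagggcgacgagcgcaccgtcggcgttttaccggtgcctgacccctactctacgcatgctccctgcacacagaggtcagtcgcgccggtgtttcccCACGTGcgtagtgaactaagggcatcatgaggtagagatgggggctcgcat
Ndufa6: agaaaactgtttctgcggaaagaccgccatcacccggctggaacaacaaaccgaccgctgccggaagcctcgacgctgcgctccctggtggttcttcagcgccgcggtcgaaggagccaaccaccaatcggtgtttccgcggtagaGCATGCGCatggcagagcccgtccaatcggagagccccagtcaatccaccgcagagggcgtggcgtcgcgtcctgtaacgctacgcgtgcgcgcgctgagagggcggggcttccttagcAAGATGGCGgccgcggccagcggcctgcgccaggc
Ndufs1: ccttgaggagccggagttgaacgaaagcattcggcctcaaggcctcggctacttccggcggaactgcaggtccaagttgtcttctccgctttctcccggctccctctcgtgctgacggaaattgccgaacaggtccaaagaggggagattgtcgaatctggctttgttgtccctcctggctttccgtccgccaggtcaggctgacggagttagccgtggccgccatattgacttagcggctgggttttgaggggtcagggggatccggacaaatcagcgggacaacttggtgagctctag

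Summed over the 38 subunits, the level was 14312 ± 383 CPM in ST hearts and 12711 ± 1174 CPM in WT hearts of 6 months, and 17216 ± 529 CPM in ST hearts of 8 months (SD, n = 3 each). At 2 months the 34 subunits described there summed to 6188 ± 553 CPM in ST hearts and 6894 ± 181 CPM in WT hearts (SD, n = 2 each). The ST sums of 6 months (14405, 13891 and 14640 CPM) all lay above the WT sums (11374, 13185 and 13574 CPM), and the ST sums of 8 months (17089, 16763 and 17798 CPM) lay above both. At 2 months both ST sums (5797 and 6579 CPM) lay below both WT sums (6767 and 7022 CPM). The assembly factors summed to 323, 299.7 and 307 CPM in ST hearts and 252, 270.2 and 274 CPM in WT hearts of 6 months, and to 314, 329 and 344 CPM in ST hearts of 8 months. Their sums in ST hearts of 8 and 6 months overlapped.

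**Figure D1:**
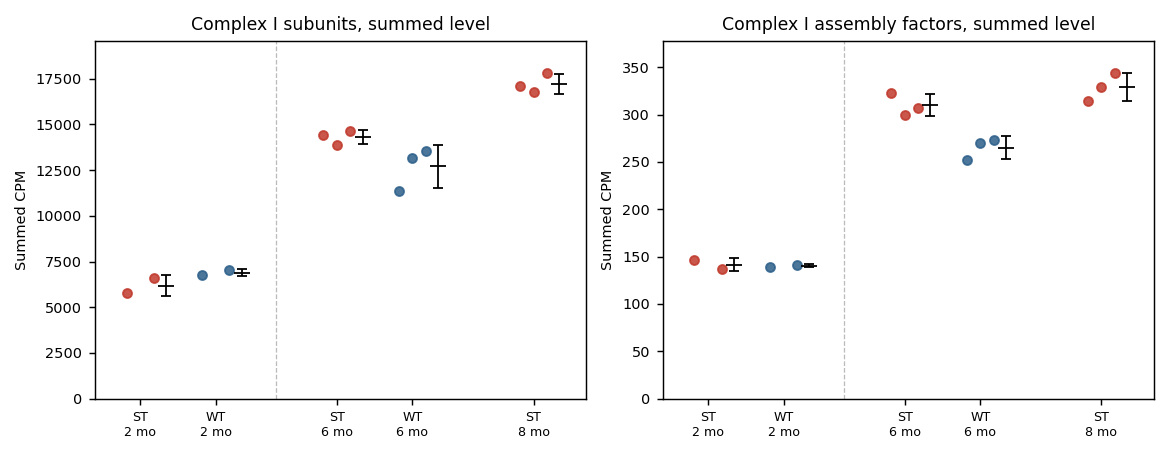
Summed level (CPM) of the complex I subunits (left) and assembly factors (right) in each library, with red points for ST and blue points for WT libraries and black bars for the mean ± SD of each group. A dashed line parts the 2-month table, which holds fewer of these genes and is scaled apart, from the later tables. The 3 ST libraries of 8 months sit between 16763 and 17798 CPM for the subunits, above all libraries of 6 months.

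At 2 months, most complex I genes lay slightly lower in ST hearts, and Ndufb8 passed the test. Of the 41 genes 35 had a log2 fold change below 0, where 50% of all genes lay above 0, with a median of -0.16 over the 34 subunits and -0.16 over the 7 factors, against -0.00 over all 12121 genes tested. The subunit median was -0.077 without ST replicate 1 and -0.26 without ST replicate 2. With the edgeR quasi-likelihood test at an adjusted p of 0.05, 1 of 41 complex I genes was lower (2.44%) and 0 were higher, where 2.1% of all genes tested were lower and 2.7% higher (4.8% in either direction). This share is near that of all genes. All adjusted p-values given come from this test, with Benjamini-Hochberg adjustment over all genes tested. At an unadjusted p under 0.05, 5 of the 41 differed. The ST libraries lay wholly below the WT libraries for 23 of 41 genes and wholly above for 4, against 24.1% and 24.8% of all genes.

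Ndufb8, a subunit of the outer membrane arm, had 88.2 and 136 CPM in ST hearts, against 175 and 165 CPM in WT hearts (log2 fold change -0.60, SE 0.166, adjusted p = 0.0471). The groups did not overlap, and ST replicate 1 was far below ST replicate 2. The log2 fold change of Ndufb8 was -0.56 (adjusted p = 0.2) when WT replicate 1 was left out, -0.65 (adjusted p = 0.0571) when WT replicate 2 was, -0.32 (adjusted p = 0.151) when ST replicate 1 was and -0.95, which passed, when ST replicate 2 was. With mitochondrially encoded and haemoglobin genes left out of the fit it was -0.60 (adjusted p = 0.0521). Without ST replicate 2, 12 of the 41 genes passed as lower and 1 as higher, 13 in all, and 0 passed when any other library of 2 months was left out.

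Other members of the membrane arm with small p-values did not pass. Ndufb4 had 69.7 and 90.3 CPM in ST hearts, against 106 and 106 CPM in WT hearts (log2 fold change -0.41, adjusted p = 0.117). Ndufc2, which joins the membrane arm near the matrix arm, had 94.0 and 129 CPM in ST hearts, against 146 and 142 CPM in WT hearts (log2 fold change -0.37, adjusted p = 0.185). In Ndufa13, also of that inner part, the ST hearts had 62.9 and 99.0 CPM and the WT hearts 107 and 107 CPM (log2 fold change -0.41, adjusted p = 0.198). In all 3 genes the ST libraries lay below the WT libraries, with ST replicate 1 the lower of the pair. Levels of Ndufb7, which faces the intermembrane space, were 113 and 156 CPM in ST hearts and 182 and 151 CPM in WT hearts, which overlap (log2 fold change -0.31). For Ndufb10, also of that side of the membrane, they were 123 and 137 CPM in ST hearts and 153 and 157 CPM in WT hearts, without overlap (log2 fold change -0.25).

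None of the 7 core subunits of the matrix arm passed at 2 months. Ndufv1, which binds NADH and the flavin, had 388 and 556 CPM in ST hearts, against 579.7 and 594 CPM in WT hearts (log2 fold change -0.32, SE 0.155). Its partner Ndufv2, which holds an iron-sulfur cluster, had 310.3 and 349 CPM in ST hearts, against 371 and 400.3 CPM in WT hearts (log2 fold change -0.23, SE 0.129). Both lay below the WT libraries in both ST libraries. Ndufs1, the largest core subunit, which carries several iron-sulfur clusters, stood at 1085 and 1099.9 CPM in ST hearts and 1026 and 1109 CPM in WT hearts, which overlap (log2 fold change 0.03, SE 0.130). Levels of Ndufs3, in the part of the arm that leads to ubiquinone, were 184 and 199.9 CPM in ST hearts and 226 and 245 CPM in WT hearts (log2 fold change -0.29, SE 0.127). In Ndufs3, too, both ST libraries lay below both WT libraries. Ndufs7, which holds the last iron-sulfur cluster before ubiquinone, had 244 and 347 CPM in ST hearts, against 331 and 356 CPM in WT hearts (log2 fold change -0.22, SE 0.154). Ndufs8, with clusters that lead to it, had 98.3 and 105 CPM in ST hearts, against 96.6 and 126 CPM in WT hearts (log2 fold change -0.13, SE 0.142). In Ndufs7 ST replicate 1 lay below and ST replicate 2 between the WT libraries, and the Ndufs8 libraries overlapped as well.

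Of the 7 assembly factors none passed at 2 months, with log2 fold changes from -0.53 for Ndufaf2 to 0.29 for Ndufaf4.

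The subunits encoded by mitochondrial DNA, which form the proton-pumping core, are listed at 2 months alone. 0 of 7 passed, and their log2 fold changes ran from -0.38 for Mt-nd5 to 0.38 for Mt-nd6. Mt-nd6, the gene on the light strand, had 869 and 915 CPM in ST hearts, against 678 and 689.8 CPM in WT hearts (adjusted p = 0.106). The log2 fold changes for Mt-nd1, Mt-nd2 and Mt-nd4 were -0.28, -0.33 and -0.19, and those for Mt-nd3 and Mt-nd4l 0.35 and 0.37. Among 13 regulators of mitochondrial genes 1 passed: Ppargc1a, a coactivator of mitochondrial biogenesis, had 149.8 and 143 CPM in ST hearts, against 59.5 and 58.8 CPM in WT hearts (log2 fold change 1.31, SE 0.128, adjusted p = 1.09e-05). Of the 35 nuclear subunits of complexes II to V tested 0 passed with edgeR, while 5 had an unadjusted p under 0.05, and their median was -0.09.

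Other gene groups were measured beside complex I at 2 months. Of 65 cytosolic ribosomal proteins 1 rose and 5 fell in ST hearts (7.69% lower, median -0.09), with sums of 5873 to 5919 CPM in ST hearts and 6193 to 6452 CPM in WT hearts. Of 30 very long messenger RNAs 24 had a log2 fold change above 0 and 1 passed as higher (median 0.14), with sums of 121482 to 126428 CPM in ST hearts and 102736 to 109095 CPM in WT hearts. Of 4 erythroid markers tested there 2 were higher and 0 lower, with sums of 306 to 401 CPM in ST hearts and 146 to 181 CPM in WT hearts. Of 8 endothelial markers 1 was lower, as was 1 of 3 atrial markers tested, and 0 were higher in either list. Of 8 fibroblast markers 0 passed, and 7 had a log2 fold change above 0. None of 7 smooth muscle and pericyte markers tested passed, and the 8 listed summed to 864 to 883 CPM in ST hearts and 747 to 786 CPM in WT hearts. Of 8 macrophage markers 0 passed. Of 12 cardiomyocyte markers 0 passed, and 8 had a log2 fold change below 0 and 4 above (median -0.08). Their sums went the other way, with 175322 to 183965 CPM in ST hearts and 162172 to 173208 CPM in WT hearts. The part of all these groups in the complex I values of 2 months was not tested.

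In ST hearts of 6 months, 12 of the 46 complex I genes rose and 0 fell relative to WT hearts, and 44 had a log2 fold change above 0, against 49.8% of all genes. The largest change was that of the assembly factor Ndufaf4, followed by the subunits Ndufa12 and Ndufc1. The other 9 that rose were Ndufc2, Ndufa8, Ndufa2, Ndufa10, Ndufb6, Ndufv1, Ndufa5, Ndufa6 and Ndufb9, at 0.19 to 0.34 on the log2 scale. The median was 0.19 over the 38 subunits and 0.12 over the 8 factors, against -0.00 over all 13253 genes tested. Without WT replicate 1 the subunit median was 0.093.

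These 12 genes are 26.1% of the members, where 19.9% of all genes were higher in ST hearts and 20.1% lower (40% in either direction). The count of risen genes was thus not far from the background, while the count of fallen genes was below it. By role, 4 of 9 accessory subunits of the matrix arm rose, 4 of 9 of the inner membrane arm, 2 of 11 of the outer membrane arm, 1 of 7 core subunits and 1 of 8 factors. Ndufab1 and Ndufa4 did not pass. The ST libraries lay wholly above the WT libraries for 23 of 46 genes and wholly below for 1, against 25.2% and 26.5% of all genes.

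Ndufaf4, which acts with Ndufaf3 in building the part of the matrix arm that binds ubiquinone, had 79.5, 84.4 and 81.1 CPM in ST hearts, against 56.8, 49.7 and 55.1 CPM in WT hearts (log2 fold change 0.61, SE 0.0751, adjusted p = 6.88e-05). The groups lay well apart, with no ST library below 79 CPM and no WT library above 57 CPM. Ndufaf3 itself had 48.5, 45.9 and 48.6 CPM in ST hearts and 45.6, 46.6 and 49.7 CPM in WT hearts (log2 fold change 0.01, SE 0.0790, adjusted p = 0.903), which overlap. Of the remaining factors none passed, with log2 fold changes from -0.12 for Ndufaf2 to 0.27 for Ndufaf7.

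Ndufa12, an accessory subunit whose human form takes the place of the assembly factor NDUFAF2 late in assembly, had 339, 300.2 and 346 CPM in ST hearts, against 216, 237 and 252 CPM in WT hearts (log2 fold change 0.49, SE 0.0808, adjusted p = 0.000589). Ndufa2, a matrix arm subunit with a thioredoxin-like fold, had 136, 143 and 148 CPM in ST hearts, against 97.7, 120.3 and 127 CPM in WT hearts (log2 fold change 0.31, SE 0.0942, adjusted p = 0.0198). Neither gene had overlapping groups. The levels of Ndufa5, in the part that binds ubiquinone, were 379, 380.4 and 388 CPM in ST hearts and 247, 342 and 343 CPM in WT hearts (log2 fold change 0.30, SE 0.110, adjusted p = 0.0468). Those of Ndufa6, which binds the acyl carrier protein Ndufab1, were 196, 174 and 199.9 CPM in ST hearts and 129, 157 and 179 CPM in WT hearts (log2 fold change 0.29, SE 0.108, adjusted p = 0.0469). WT replicate 1 was the lowest in both, and in Ndufa6 the highest WT library exceeded the lowest ST library.

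In the inner membrane arm, Ndufc1 had 225, 186 and 228 CPM in ST hearts, against 137, 157 and 173 CPM in WT hearts (log2 fold change 0.46, SE 0.101, adjusted p = 0.00376). Its neighbour Ndufc2 had 192, 186 and 195 CPM in ST hearts, against 130.4, 154 and 168 CPM in WT hearts (log2 fold change 0.34, SE 0.0893, adjusted p = 0.00948). Both showed no overlap, and in both ST replicate 2 was the lowest ST library. Ndufa8, on the side of the intermembrane space, had 315, 307 and 327 CPM in ST hearts, against 224, 269 and 273 CPM in WT hearts (log2 fold change 0.31, SE 0.0837, adjusted p = 0.0112). Ndufa10, which has a nucleoside kinase fold, had 672, 599 and 675 CPM in ST hearts, against 563, 556 and 572 CPM in WT hearts (log2 fold change 0.21, SE 0.0672, adjusted p = 0.0282). In these genes, too, every ST library lay above every WT library.

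In the outer membrane arm, Ndufb6 had 161, 151 and 160.2 CPM in ST hearts, against 116, 139 and 142 CPM in WT hearts (log2 fold change 0.25, SE 0.0850, adjusted p = 0.033). Ndufb9, which like Ndufa6 binds Ndufab1, had 647, 605 and 662 CPM in ST hearts, against 505, 574 and 585 CPM in WT hearts (log2 fold change 0.21, SE 0.0754, adjusted p = 0.0476). Neither pair of groups overlapped. The one core subunit that rose was Ndufv1, with 1032, 945 and 1064 CPM in ST hearts, against 850.0, 913 and 905 CPM in WT hearts (log2 fold change 0.19, SE 0.0678, adjusted p = 0.0408). The other core subunits did not pass. Ndufv2 had 625, 641 and 613 CPM in ST hearts, against 586, 596 and 595 CPM in WT hearts (log2 fold change 0.08), and Ndufs1 had 1253, 1272 and 1246 CPM in ST hearts, against 1166, 1269 and 1243 CPM in WT hearts (log2 fold change 0.04). Of these, the Ndufs1 groups overlapped, and every ST library lay above every WT library in Ndufv2. Ndufs3 had 353, 343 and 362 CPM in ST hearts, against 293, 325 and 335 CPM in WT hearts (log2 fold change 0.15). Ndufs7 had 288, 273 and 307 CPM in ST hearts, against 234, 292 and 297 CPM in WT hearts (log2 fold change 0.08), and Ndufs8 had 198, 189 and 205 CPM in ST hearts, against 173, 179 and 192 CPM in WT hearts (log2 fold change 0.12). The Ndufs7 and Ndufs8 groups overlapped, and those of Ndufs3 did not.

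The rise in Ndufaf4, Ndufa12, Ndufc1 and Ndufc2 kept its call under all 15 alternatives run, while the other 8 lost it in some. The count of risen genes was 7 without WT replicate 1, the library that was lowest in 43 of 46 genes, 6 without ST replicate 1 and 5 without ST replicate 3. The 5 genes that lost their call without WT replicate 1 were Ndufa5, with a log2 fold change of 0.16 (adjusted p = 0.0618), Ndufa6 with 0.18 (adjusted p = 0.135), Ndufb6 with 0.16 (adjusted p = 0.0846), Ndufv1 with 0.16 (adjusted p = 0.0803) and Ndufb9 with 0.14 (adjusted p = 0.11). Ndufa2 kept its call there at 0.21. With scaling by library size alone it was 4 and the subunit median 0.08, a scaling that moved the median of all genes by -0.115.

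Beside complex I at 6 months, 9 of 14 mitochondrial proteins outside the respiratory chain rose and 0 fell (median 0.24), the outer membrane channel Vdac1 among them (log2 fold change 0.30, SE 0.0628). Of 42 nuclear subunits of complexes II to V 5 rose and 0 fell (median 0.13), with Cox7a1, the heart form of a complex IV subunit, at 0.84 (SE 0.160). Of 16 complex I assembly factors with other names, Tmem242 (log2 fold change 0.45, SE 0.0901), Aifm1 (log2 fold change 0.30, SE 0.0771) and Ecsit (log2 fold change 0.21, SE 0.0724) rose and 0 fell. Among 13 regulators 5 rose and 2 fell: Ppargc1a stood at 0.83 (SE 0.106) and its relative Pprc1 at 0.91 (SE 0.110), both higher, while the nuclear receptor Esrrg (log2 fold change -0.53, SE 0.0750) and Ppargc1b (log2 fold change -0.56, SE 0.131) were lower. Of 78 cytosolic ribosomal proteins 2 rose and 0 fell (median 0.09), and WT replicate 1, with 15111 CPM summed over them against 18169 and 19157 CPM in the other WT libraries, was low in these too. Of 30 very long messenger RNAs 7 rose and 7 fell.

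**Figure D2:**
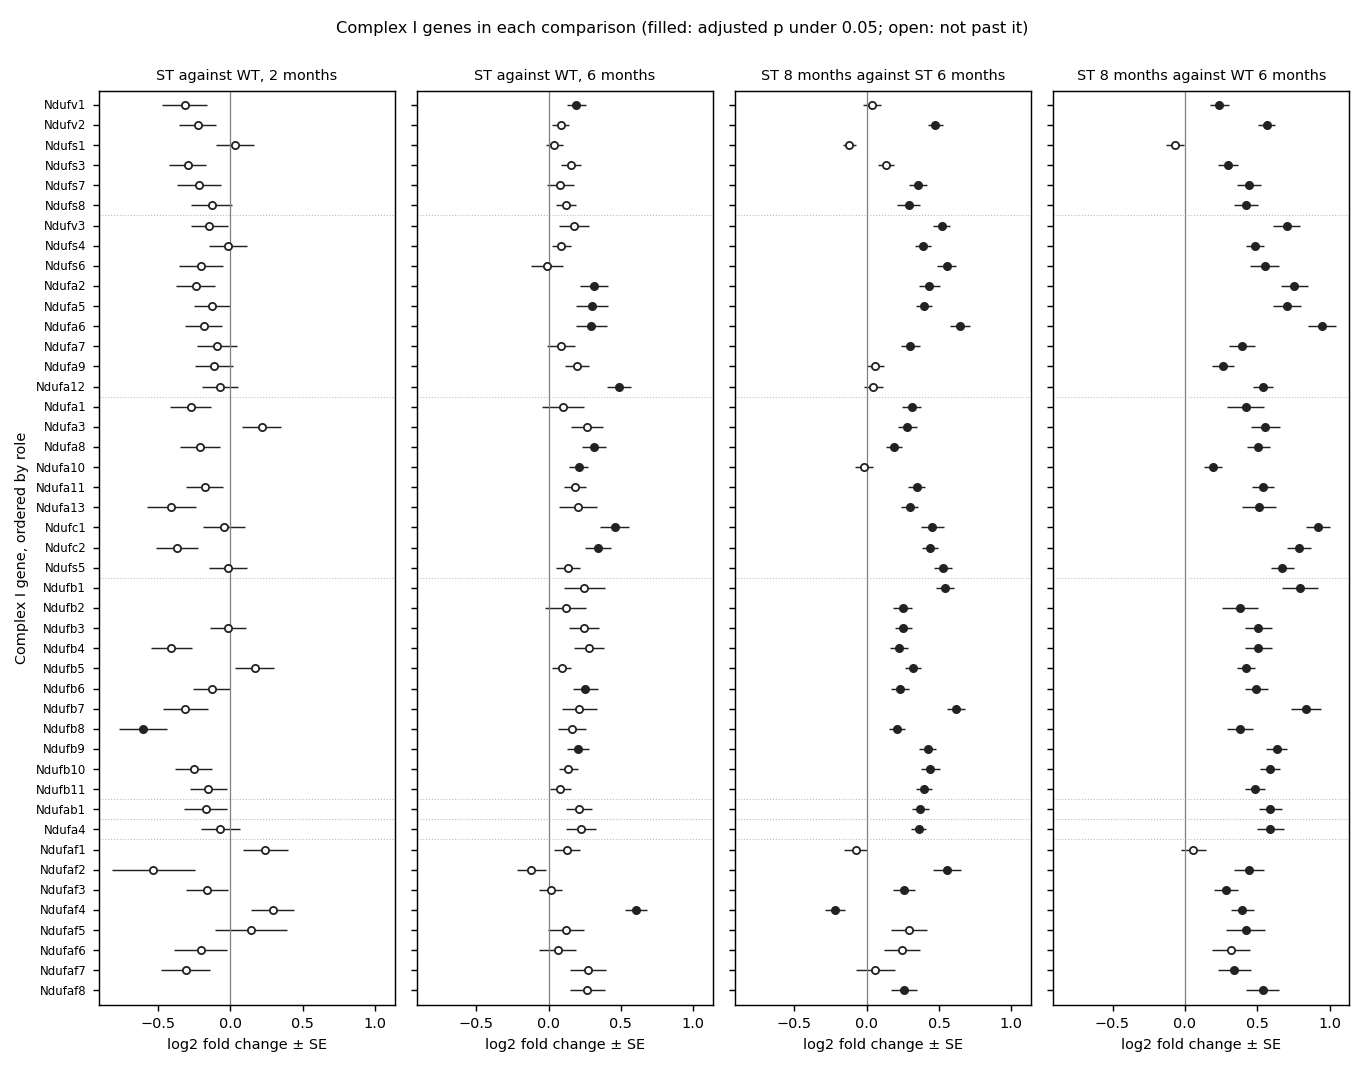
Log2 fold change with its SE for the complex I genes shown, ordered by role with dotted lines between roles, in the 4 comparisons. Filled points passed the adjusted p threshold of 0.05 and open points did not. At 2 months 1 point is filled, at 6 months 12, for ST 8 against ST 6 months 35 and for ST 8 against WT 6 months 42.

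The difference between the ST effects of 6 and 2 months, tested as an interaction over the 41 genes in both tables, was above 0 for 37 of them, against 48.9% of all genes, with a subunit median of 0.36 against -0.02 over all 12658 genes tested. It passed for 9 of 41 genes, all more positive at 6 months (22%), where 10.2% of all genes tested were more positive and 12% more negative. Ndufc2 had a difference of 0.70 (SE 0.172, adjusted p = 0.00838) and Ndufa12 of 0.55 (SE 0.134, adjusted p = 0.00835), and these 2 kept their call under all 19 alternatives run. The other 7 were Ndufb8 (log2 difference 0.76, SE 0.204), Ndufb4 (log2 difference 0.68, SE 0.178), Ndufa2 (log2 difference 0.54, SE 0.158), Ndufa8 (log2 difference 0.51, SE 0.152), Ndufv1 (log2 difference 0.50, SE 0.162), Ndufs3 (log2 difference 0.44, SE 0.125) and Ndufb10 (log2 difference 0.38, SE 0.119). Without ST replicate 1 of 2 months or without WT replicate 1 of 2 months 3 passed, without WT replicate 2 of 2 months 4, without ST replicate 3 of 6 months 5, and without ST replicate 2 of 2 months 18. Without ST replicate 1 of 2 months the difference was 0.47 (adjusted p = 0.0723) for Ndufb8 and 0.26 (adjusted p = 0.156) for Ndufv1, and without ST replicate 2 of 2 months that of Ndufv1 was 0.78. Without WT replicate 1 of 6 months 8 passed. Core subunits that did not pass were Ndufv2 (log2 difference 0.30), Ndufs7 (log2 difference 0.29), Ndufs8 (log2 difference 0.24) and Ndufs1 (log2 difference -0.01).

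Compared with ST hearts of 6 months, ST hearts of 8 months had higher levels of most complex I transcripts. 34 of 46 genes rose in ST hearts of 8 months and Ndufaf4 fell. The outer membrane arm rose in all of its 11 subunits, the inner membrane arm in 8 of 9, the accessory matrix arm in 7 of 9 and the core in 3 of 7, and Ndufab1 and Ndufa4 rose as well. Of the factors 3 of 8 rose. The median was 0.33 over the subunits and 0.25 over the factors, against 0.02 over all 12931 genes tested. These 34 genes are 73.9% of the members, where 19.1% of all genes were higher and 20.5% lower (39.6% in either direction). The libraries of 8 months lay wholly above those of 6 months for 37 of 46 genes and wholly below for 2, against 25.9% and 25.1% of all genes. The log2 fold change was above 0 for 42 of 46, against 51.8% of all genes. Without ST replicate 2 of 6 months 34 genes passed in either direction, against 35 with it.

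Ndufb7, of the outer membrane arm, had 389, 382 and 374 CPM in ST hearts of 8 months, against 230.0, 254 and 261 CPM in ST hearts of 6 months (log2 fold change 0.62, SE 0.0639, adjusted p = 9.26e-06). Ndufb1, of the same arm, had 145, 149 and 146 CPM at 8 months, against 100.4, 102 and 99.7 CPM at 6 months (log2 fold change 0.54, SE 0.0603, adjusted p = 1.72e-05). In the inner membrane arm Ndufs5 had 282, 289.7 and 305 CPM at 8 months, against 201, 198 and 209 CPM at 6 months (log2 fold change 0.53, SE 0.0597, adjusted p = 2.01e-05). None of these groups overlapped, and the lowest library of 8 months was above the highest of 6 months in each. Ndufc2 had 261, 259 and 257 CPM at 8 months, against 192, 186 and 195 CPM at 6 months (log2 fold change 0.44, SE 0.0572, adjusted p = 6.38e-05).

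In the matrix arm, Ndufa6 had 295, 283 and 314 CPM in ST hearts of 8 months, against 196, 174 and 199.9 CPM in ST hearts of 6 months (log2 fold change 0.64, SE 0.0688, adjusted p = 1.19e-05). Ndufs6, which binds zinc, had 423, 478 and 423 CPM at 8 months, against 299, 307 and 295 CPM at 6 months (log2 fold change 0.55, SE 0.0643, adjusted p = 2.52e-05). Ndufv3, which sits at the NADH-binding tip, had 360.0, 343 and 365 CPM at 8 months, against 245, 244 and 255 CPM at 6 months (log2 fold change 0.52, SE 0.0569, adjusted p = 1.54e-05). Every library of 8 months lay above every library of 6 months in these 3 genes. At the same tip the core subunits parted: Ndufv2 had 855, 859.6 and 898 CPM at 8 months, against 625, 641 and 613 CPM at 6 months (log2 fold change 0.47, SE 0.0518, adjusted p = 1.48e-05). Ndufv1 had 1016, 997 and 1111 CPM at 8 months, against 1032, 945 and 1064 CPM at 6 months (log2 fold change 0.04, SE 0.0599, adjusted p = 0.66). Ndufs1 had 1162, 1132 and 1185 CPM at 8 months, against 1253, 1272 and 1246 CPM at 6 months (log2 fold change -0.12, SE 0.0475, adjusted p = 0.0627). Ndufv2 thus rose without overlap, the Ndufv1 groups overlapped, and Ndufs1 lay lower in all 3 libraries of 8 months without passing the test.

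Of the core subunits around ubiquinone, Ndufs7 had 375, 361 and 374 CPM at 8 months, against 288, 273 and 307 CPM at 6 months (log2 fold change 0.35, SE 0.0605, adjusted p = 0.000554), and Ndufs8 had 238, 214 and 273 CPM at 8 months, against 198, 189 and 205 CPM at 6 months (log2 fold change 0.29, SE 0.0806, adjusted p = 0.0124). Both rose, and Ndufs8 lost its call without ST replicate 3 of 8 months (0.19, adjusted p = 0.0774). Ndufs3 had 373, 389 and 401 CPM at 8 months, against 353, 343 and 362 CPM at 6 months (log2 fold change 0.13, SE 0.0565, adjusted p = 0.0771). These groups of libraries did not overlap, although Ndufs3 did not pass the threshold. Ndufa12, Ndufa9 and Ndufa10 did not pass either, at 0.05, 0.06 and -0.02 on the log2 scale.

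The assembly factors went both ways. Ndufaf4 fell to 68.2, 68.4 and 74.0 CPM in ST hearts of 8 months, against 79.5, 84.4 and 81.1 CPM in ST hearts of 6 months (log2 fold change -0.22, SE 0.0701, adjusted p = 0.0241). Ndufaf2 had 32.4, 28.8 and 29.6 CPM at 8 months, against 20.5, 20.3 and 20.8 CPM at 6 months (log2 fold change 0.55, SE 0.0964, adjusted p = 0.000623). Neither gene had overlapping groups, and Ndufaf2, unlike Ndufaf4, was higher at 8 months. Ndufaf3 had 56.2, 60.8 and 54.2 CPM at 8 months, against 48.5, 45.9 and 48.6 CPM at 6 months (log2 fold change 0.26, SE 0.0782, adjusted p = 0.0193), and Ndufaf8, the human form of which works with NDUFAF5, had 41.1, 40.5 and 44.6 CPM at 8 months, against 38.8, 33.0 and 33.9 CPM at 6 months (log2 fold change 0.26, SE 0.0899, adjusted p = 0.0362). Ndufaf8 lost its call without ST replicate 2 or 3 of 6 months, without any of the 8-month libraries, with DESeq2, without the filter and in a fit over all groups. Ndufaf4 lost its call without ST replicate 1 or 2 of 8 months and with DESeq2 or scaling by library size, and Ndufaf3 lost it without ST replicate 2 of 8 months and with DESeq2.

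**Figure D3:**
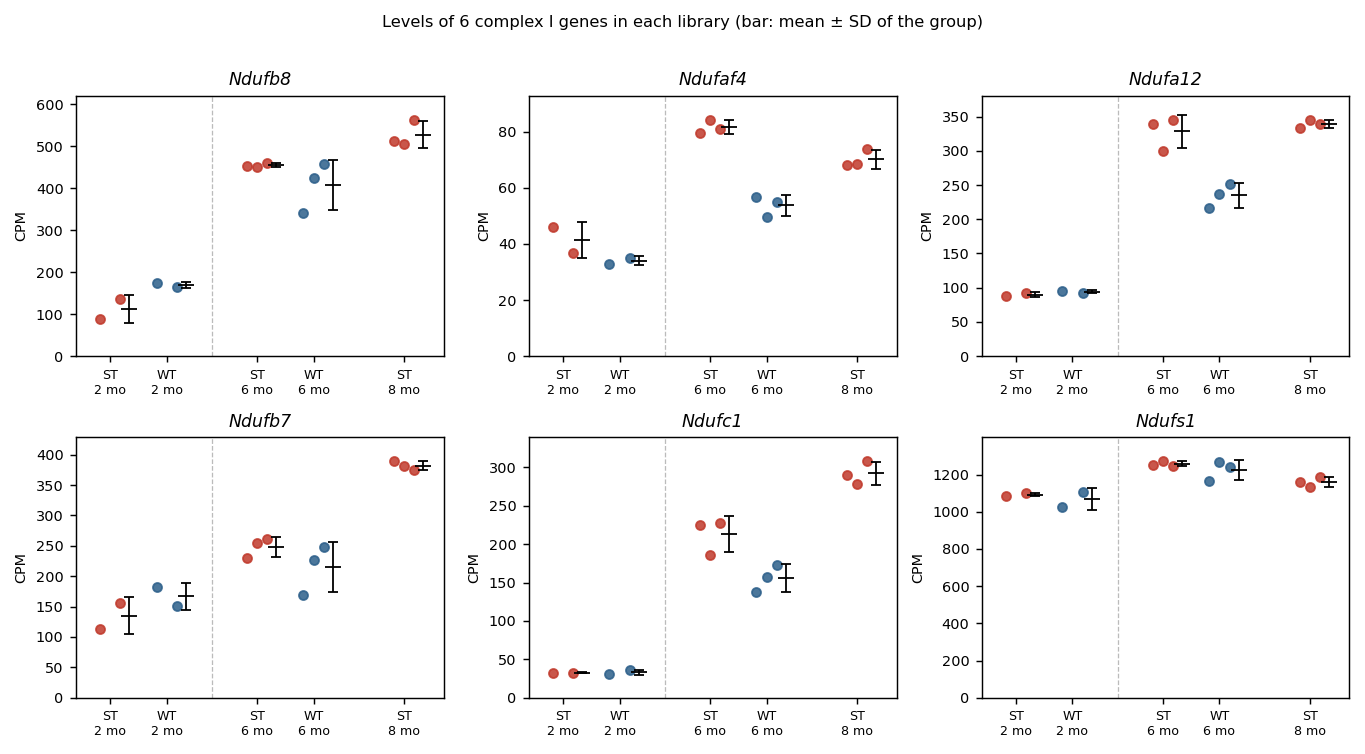
Level (CPM) of 6 complex I genes in each library, with red points for ST and blue points for WT libraries and black bars for the mean ± SD of each group (n = 2 each at 2 months, n = 3 each later). A dashed line parts the 2-month table, which is scaled apart. Ndufaf4 is highest in the ST libraries of 6 months (79.5 to 84.4 CPM), Ndufb7 and Ndufc1 are highest in those of 8 months, and Ndufs1 stays between 1132 and 1272 CPM in all libraries of 6 and 8 months.

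Other gene groups also differed between ST hearts of 8 and 6 months. Of 42 nuclear subunits of complexes II to V 30 rose and 1 fell in ST hearts of 8 months (median 0.31), with Uqcrb of complex III at 0.60 (SE 0.0529) and Atp5pf of the ATP synthase at 0.53 (SE 0.0518). Of 78 cytosolic ribosomal proteins 53 rose and 2 fell (median 0.24), with summed levels of 21584 to 21974 CPM at 8 months and 17754 to 19681 CPM at 6 months. Of 30 very long messenger RNAs 2 rose and 16 fell (median -0.31), with Fat1 at -1.05 (SE 0.0682). Of 14 mitochondrial proteins outside the respiratory chain 2 rose and 2 fell (median 0.01): the ADP/ATP carrier Slc25a4 (log2 fold change 0.17, SE 0.0397) and Vdac1 (log2 fold change 0.15, SE 0.0496) were higher, and the fusion protein Mfn2 (log2 fold change -0.20, SE 0.0544) and citrate synthase Cs (log2 fold change -0.20, SE 0.0605) lower. Among 13 regulators 0 rose and 4 fell, namely Esrra (log2 fold change -0.52, SE 0.0644), Pprc1 (log2 fold change -0.83, SE 0.112), Ppargc1a (log2 fold change -0.60, SE 0.106) and Yy1 (log2 fold change -0.25, SE 0.0795). The part of transcript length in the rise of complex I genes was not tested.

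**Figure D4:**
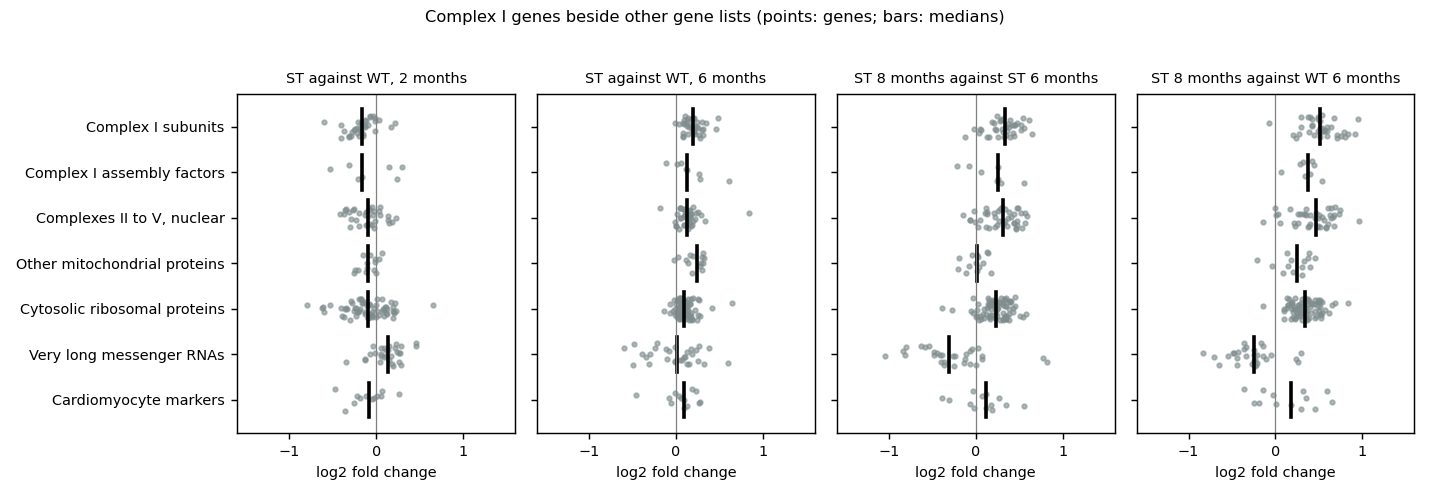
Log2 fold change of each gene (points) and the median (bars) for the complex I subunits and assembly factors and 5 other lists in the 4 comparisons. For ST 8 against ST 6 months the bars of complex I subunits (0.33), complexes II to V (0.31) and cytosolic ribosomal proteins (0.24) lie above 0, that of other mitochondrial proteins lies at 0.01 and that of very long messenger RNAs at -0.31.

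Markers of other cell types also differed between these hearts. Of 8 macrophage markers 5 were lower and 0 higher in ST hearts of 8 months than of 6 months, with sums of 80.3 to 93.2 CPM at 8 months and 130.2 to 178 CPM at 6 months. Of 13 cardiomyocyte markers 7 were higher and 2 lower, with sums of 141598 to 143065 CPM at 8 months and 125800 to 133537 CPM at 6 months. Of 8 endothelial markers 3 were higher and 1 lower, with sums of 1245 to 1303 CPM at 8 months and 1024 to 1137 CPM at 6 months, and of 8 fibroblast markers 4 were higher and 3 lower, with sums of 1156 to 1240 CPM at 8 months and 978 to 1041 CPM at 6 months. Of 4 atrial markers 2 were higher, with sums of 153 to 509 CPM at 8 months and 54.5 to 568 CPM at 6 months, and in the comparison of ST with WT hearts of 6 months 2 were higher and 1 lower, with sums of 54.5 to 568 CPM in ST hearts and 36.1 to 113 CPM in WT hearts. Of 8 smooth muscle and pericyte markers 4 were higher and 1 lower in ST than in WT hearts of 6 months, with sums of 581 to 714 CPM in ST hearts and 627 to 678 CPM in WT hearts, and of 8 fibroblast markers 3 were higher and 4 lower, with sums of 978 to 1041 CPM in ST hearts and 1211 to 1290.2 CPM in WT hearts. Of 7 erythroid markers 6 were higher in ST than in WT hearts of 6 months, with sums of 714 to 792 CPM in ST hearts and 401 to 537 CPM in WT hearts. In that comparison 3 of 13 cardiomyocyte markers were higher and 1 lower, and 9 had a log2 fold change above 0 and 4 below (median 0.09). Their sums were 125800 to 133537 CPM in ST hearts and 132252 to 141918 CPM in WT hearts. Endothelial markers (2 of 8 higher, 2 lower) summed to 1024 to 1137 CPM in ST hearts and 902 to 1122 CPM in WT hearts. Macrophage markers (2 of 8 higher, 0 lower) summed to 130.2 to 178 CPM in ST hearts and 115 to 149.5 CPM in WT hearts. Of 2 adipocyte markers tested 1, Fabp4, was higher in ST hearts of 8 months than in ST hearts (log2 fold change 0.52, SE 0.0894) and WT hearts (log2 fold change 0.43, SE 0.0753) of 6 months. The 6 adipocyte markers summed to 639 to 761 CPM in ST hearts of 8 months, 431 to 533 CPM in ST hearts of 6 months and 499 to 556 CPM in WT hearts of 6 months, with Cidec and Ucp1 at 0 counts in every one of these libraries. The part of these cell types in the complex I results was not tested.

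Set against WT hearts of 6 months, ST hearts of 8 months had more transcript of nearly every complex I gene. 43 of 46 rose and 0 fell, and 37 of 38 subunits and 6 of 8 factors were among them. The 3 that did not pass were Ndufs1 (log2 fold change -0.07, SE 0.0601, adjusted p = 0.403), Ndufaf1 (log2 fold change 0.06, SE 0.0880, adjusted p = 0.64) and Ndufaf6 (log2 fold change 0.32, SE 0.133, adjusted p = 0.0773). The median was 0.51 over the subunits and 0.37 over the factors, against -0.01 over all 13095 genes tested. The 43 genes are 93.5% of the members, where 17.8% of all genes were higher and 16.1% lower (33.9% in either direction). For 42 of 46 genes the libraries of ST hearts lay wholly above those of WT hearts and for 0 wholly below, against 22.5% and 24.3% of all genes. The log2 fold change was above 0 for 45 of 46, against 49.2% of all genes. Without WT replicate 1 of 6 months 41 genes passed and the subunit median was 0.41. The ST and WT hearts of this comparison differ in transduction, in time and in table, which cannot be told apart, and it shares its libraries with the comparisons above.

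Ndufa6 had 295, 283 and 314 CPM in ST hearts of 8 months, against 129, 157 and 179 CPM in WT hearts of 6 months (log2 fold change 0.95, SE 0.0949, adjusted p = 1.46e-06). Ndufc1 had 290.1, 278 and 308 CPM in ST hearts, against 137, 157 and 173 CPM in WT hearts (log2 fold change 0.92, SE 0.0819, adjusted p = 3.9e-07). Ndufb7 had 389, 382 and 374 CPM in ST hearts, against 169.6, 227 and 248 CPM in WT hearts (log2 fold change 0.84, SE 0.103, adjusted p = 1.36e-05). In each of these genes the lowest ST library exceeded the highest WT library by more than the spread within either group. Ndufc2 stood at 0.79 (SE 0.0826, adjusted p = 2.34e-06), Ndufs5 at 0.67 (SE 0.0791, adjusted p = 8.41e-06), Ndufb9 at 0.64 (SE 0.0725, adjusted p = 6.09e-06), Ndufb10 at 0.59 (SE 0.0693, adjusted p = 8.76e-06) and the core subunit Ndufv2 at 0.57 (SE 0.0589, adjusted p = 2.24e-06), and none of these had overlapping groups. Their libraries in ST hearts of 8 months had 868, 798 and 901 CPM for Ndufb9, against 505, 574 and 585 CPM in WT hearts, and 405, 404 and 462 CPM for Ndufb10, against 282, 275 and 296 CPM in WT hearts. Ndufs5 in WT hearts of 6 months had 162, 194 and 198 CPM, below the ST levels of 8 months given above.

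Other core subunits that rose had log2 fold changes of 0.44 (SE 0.0830) for Ndufs7, 0.42 (SE 0.0827) for Ndufs8, 0.30 (SE 0.0692) for Ndufs3 and 0.24 (SE 0.0642) for Ndufv1. Whether the changes differ between genes was not tested. Ndufs1 had 1162, 1132 and 1185 CPM in ST hearts of 8 months, against 1166, 1269 and 1243 CPM in WT hearts of 6 months, and its groups overlapped.

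Among the factors, Ndufaf4 had 68.2, 68.4 and 74.0 CPM in ST hearts of 8 months, against 56.8, 49.7 and 55.1 CPM in WT hearts of 6 months (log2 fold change 0.40, SE 0.0794, adjusted p = 0.00111), and Ndufaf8 had 41.1, 40.5 and 44.6 CPM in ST hearts, against 24.5, 28.8 and 34.4 CPM in WT hearts (log2 fold change 0.54, SE 0.114, adjusted p = 0.00174). Ndufaf2 had 32.4, 28.8 and 29.6 CPM in ST hearts, against 21.2, 24.5 and 21.4 CPM in WT hearts (log2 fold change 0.44, SE 0.105, adjusted p = 0.00396). In all 3 the groups did not overlap. Ndufaf3 had 56.2, 60.8 and 54.2 CPM in ST hearts, against 45.6, 46.6 and 49.7 CPM in WT hearts (log2 fold change 0.28, SE 0.0830, adjusted p = 0.0148). Ndufaf5, whose human form modifies an arginine of NDUFS7, had 19.5, 22.04 and 26.0 CPM in ST hearts, against 15.0, 16.5 and 19.5 CPM in WT hearts (log2 fold change 0.42, SE 0.134, adjusted p = 0.0228). Ndufaf7, whose human form is a methyltransferase, had 25.4, 32.0 and 32.7 CPM in ST hearts, against 22.4, 25.04 and 24.5 CPM in WT hearts (log2 fold change 0.34, SE 0.113, adjusted p = 0.0269). The Ndufaf5 groups overlapped at their edges, and Ndufaf5 and Ndufaf7 lost their calls without WT replicate 1, without ST replicate 2 or 3 of 8 months and with DESeq2. Ndufaf5 also lost it without WT replicate 2, Ndufaf7 with scaling by library size and in a fit over all groups, and Ndufaf3 without ST replicate 2 of 8 months and with scaling by library size.

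In the same comparison 36 of 42 nuclear subunits of complexes II to V and 59 of 78 cytosolic ribosomal proteins rose and 0 fell (medians 0.47 and 0.34), 20 of 30 very long messenger RNAs fell and 2 rose (median -0.25), and 9 of 14 mitochondrial proteins outside the respiratory chain rose and 1 fell (median 0.25). Of 16 assembly factors with other names 7 rose and 0 fell, among them Tmem126a (log2 fold change 0.50, SE 0.0779) and Tmem126b (log2 fold change 0.61, SE 0.122). Of 13 cardiomyocyte markers 7 were higher and 3 lower, with sums of 141598 to 143065 CPM in ST hearts and 132252 to 141918 CPM in WT hearts. Of 8 endothelial markers 5 were higher and 0 lower, with sums of 1245 to 1303 CPM in ST hearts and 902 to 1122 CPM in WT hearts. Of 8 macrophage markers 0 were higher and 5 lower, with sums of 80.3 to 93.2 CPM in ST hearts and 115 to 149.5 CPM in WT hearts. Of 8 fibroblast markers 1 was higher and 3 lower, of 7 smooth muscle and pericyte markers 3 were higher and 1 lower, and 2 of 7 erythroid and 2 of 4 atrial markers were higher and 0 lower. The part of these groups in the complex I result was not tested.

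Reads of near-identical copies could make certain levels uncertain, which was not tested. Ndufa10l1, a name beside Ndufa10, had 2537 to 3715 counts per library at 2 months, where Ndufa10 is not listed, and 83 to 187 counts later. Listed at 2 months alone, Ndufs5-ps2 had 365 to 473 counts per library, where Ndufs5 had 332 to 609. Ndufs6-ps1, also listed there alone, had 71 to 209 counts, where Ndufs6 had 367 to 604. Ndufb3l2 had 95 to 104 counts per library in ST hearts of 8 months and 5 to 25 counts in the libraries of 6 months. Ndufb4l4 had 6.03 to 7.21 CPM in ST hearts of 8 months and 1.35 to 2.74 CPM in the libraries of 6 months. The levels of Ndufa4l2 overlapped, with 6.22 to 8.55 CPM at 8 months and 5.48 to 7.41 CPM at 6 months. Whether reads were assigned alike in the tables of 6 and 8 months was not tested. In RefSeq, 14 of the 46 genes overlap another listed name, among them Ndufs6 with Mrpl36, Ndufb1 with Cpsf2 and Ndufb2 with Braf, and the counting is not stated to use strand.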

How the data were processed

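RNA of 13 rat heart libraries was analysed from 3 tables of expected counts per gene name that the authors deposited. The tool that made the counts and the strand setting are not given in the sources used here, and mouse builds (GRCm38, mm10) are named in the submitters' processing notes, although the names and the labelled organism are rat. Expected counts were rounded to whole numbers. Genes were kept by edgeR's filterByExpr, scaled by TMM and tested with edgeR 4.0.16 (R 4.3.3), quasi-likelihood F test, with Benjamini-Hochberg adjustment over all genes tested at 0.05. Each comparison was fitted on its own libraries, and the difference of ST effects on the 23018 names that both tables share. The SE is that of the log2 fold change, from its F statistic. The labels call the libraries biological replicates. The fits were also run on simulated data with planted changes larger than most complex I changes, and the outcome is not used as support here. Alternatives used DESeq2 1.42.0, limma 3.58.1 and other scalings, filters and sets of libraries.

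Given per library were the 12 genes with the smallest p for ST against WT at 6 months, 8 in each other comparison, the assembly factors that passed, and the nuclear core subunits. A gene of the complex is counted in the totals but not reported here by itself. Of other lists at most 4 genes were named, those with the smallest p. The members, lists and rules were chosen with earlier results of these data known. Names under 1 CPM on average at 2 months were left out there.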

Additional observations from a re-analysis of the deposited data

Results flagged for a closer look

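For 9 complex I genes the effect of ST against WT differed between 6 and 2 months by edgeR's test of that difference, each more positive at 6 months on the log2 scale. The differences were 0.76 for Ndufb8, 0.70 for Ndufc2, 0.68 for Ndufb4, 0.55 for Ndufa12, 0.54 for Ndufa2, 0.51 for Ndufa8, 0.50 for Ndufv1, 0.44 for Ndufs3 and 0.38 for Ndufb10, with adjusted p-values from 0.00835 for Ndufa12 to 0.0372 for Ndufv1. These 9 genes are 22% of the 41 tested, where 10.2% of all genes were more positive and 12% more negative. Under all 19 alternatives run, the call was kept in Ndufc2 and Ndufa12 alone. In each of these 9 genes both ST libraries lay below both WT libraries at 2 months, where 24.1% of all genes did. At 6 months every ST library lay above every WT library in all of them except Ndufb8, whose groups overlapped. Such a separation above held for 25.2% of all genes at 6 months. The 9 genes were picked by the test of the difference on these same libraries, so that their separation is no further support for it. The hearts of the 2 times were counted in different tables. The part of the transgene level in these differences was not tested.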

How the results depend on the processing

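The counts of complex I genes for ST hearts of 8 months stayed within 1.5 times under every alternative run, at 29 to 37 against ST hearts and 38 to 43 against WT hearts of 6 months, and the subunit medians kept their sign in every comparison, although not their size: with a library left out they ran from -0.26 to -0.077 at 2 months, from 0.093 to 0.24 at 6 months and from 0.25 to 0.43 for the difference of ST effects. The subunit median of ST 8 against ST 6 months was 0.39 with scaling by library size and 0.32 to 0.37 with a library left out. At 2 months the count of complex I genes was 2 in a fit over all groups, 0 without mitochondrially encoded and haemoglobin genes and 0 to 13 with a library left out. The count over all genes there was 1019 without the filter, 359 with DESeq2, 1237 in the fit over all groups and 271 to 2013 with a library left out. At 6 months the count was 4 with scaling by library size and 5 to 17 with a library left out. For the difference of ST effects it was 15 without the filter, 17 in the fit over all groups and 3 to 18 with a library left out, and the count over all genes was 1558 to 3197 with a library left out. The causes were not tested.

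Of single genes, some with log2 fold changes near 0 reversed. With a library left out, the log2 fold change at 2 months ran from -0.019 to 0.080 for Ndufs1 (negative without WT replicate 1), from -0.50 to 0.013 for Ndufs7 (positive without ST replicate 1) and from -0.31 to 0.061 for Ndufs8 (positive without WT replicate 2). At 6 months it ran from -0.000401 to 0.069 for Ndufs1 and from -0.026 to 0.14 for Ndufs7 (both negative without WT replicate 1), and with scaling by library size it was -0.030 for Ndufv2, -0.075 for Ndufs1 and -0.033 for Ndufs7. For ST 8 against ST 6 months it ran from -0.016 to 0.066 for Ndufv1, negative without ST replicate 2 of 6 months or 3 of 8 months. The difference of ST effects in Ndufs1 ran from -0.059 to 0.045 with a library left out, and was 0.0041 with DESeq2's size factors, 0.0019 without the filter and 0.0039 with DESeq2. None of the values that changed sign passed the test, while Ndufs7 passed at 2 months without ST replicate 2, at -0.50. Of the other values of single genes under the alternatives, 98 lost and 20 gained their call, and 1139 kept direction and call.

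The main fits did not pair hearts by replicate number. Same-numbered libraries correlated in their deviations from the group means at 0.027 at 2 months and 0.021, 0.128 and 0.037 at 6 months. The values were 0.047, 0.260 and 0.055 for ST 8 against ST 6 months. For ST 8 against WT 6 months they were 0.069, 0.055 and 0.052, and there every sample correlated best with its own number. Libraries of different numbers ran from -0.0825 to 0.0549 at 6 months and from -0.205 to 0.134 for ST 8 against ST 6 months. At 2 months, with 2 libraries per group, the check gives only 1 value and its mirror image. The labels do not state whether hearts of the same number were paired, and these values do not settle it. With the replicate block, complex I counts were 1, 16, 36 and 43 in these comparisons, against 1, 12, 35 and 43 without it, and 14, against 9, for the difference of ST effects.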
